A study of Homo sapiens with 9 samples.

Results

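Glycolytic enzyme genes were followed in WI-38 cells made senescent with doxorubicin. The set was fixed by name as GAPDH, ALDOA, ALDOC, ENO1, ENO2, PGK1, PKM, LDHA, TPI1 and PFKP, and 7 of these 10 genes had a row among the 6499 genes of the deposited table for doxorubicin against control. ENO2, PGK1 and TPI1 had no row and were not analysed here. PFKP, LDHA and ENO1 fell to 0.631, 0.672 and 0.697 times their control level, and ALDOC rose to 1.47 times. GAPDH, ALDOA and PKM lay between 1.09 and 1.15 times control in TPM. These shifts missed an adjusted p of 0.05 after quantile normalization, where the value of GAPDH follows from its rank alone. They were larger, with log2 fold changes of 0.39, 0.38 and 0.45, when each library was centred on its median. That median is one of a list of changed genes only. The median change over this list went from -0.28 to 0.05 with a higher filter on low values.

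WI-38 cells are lung fibroblasts of an established human line that stops dividing after a number of passages. The cells used here were at population doubling 30, which the paper treats as young. The control group had DMSO, the carrier, where the model group had 1 μM doxorubicin over 12 h, a DNA-damaging topoisomerase poison, and a further 48 h in DMSO medium without the drug followed for both. Each group had 3 libraries of total RNA. A further group of 3 libraries was given oridonin after doxorubicin and was not analysed here. The labels do not say that libraries came from separate cultures, so p-values measure the spread between these libraries, which may be technical. All cells belong to 1 line, and in bulk RNA a change in the mixture of cells and a change in RNA per cell cannot be told apart.

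Glycolysis turns glucose into pyruvate in the cytosol and yields ATP and NADH on the way, and lactate dehydrogenase reduces pyruvate to lactate and returns NADH to NAD. Phosphofructokinase is the committed and most regulated step, aldolase splits the hexose into trioses, GAPDH oxidizes glyceraldehyde 3-phosphate, and enolase and pyruvate kinase finish the path. Many of these enzymes are encoded by abundant and widely expressed genes, several of them are known targets of the hypoxia-inducible factor, and GAPDH in particular is used as a reference gene to which other transcripts are compared. The paper names GAPDH as the reference of its qPCR values, so that its own level with and without doxorubicin is of interest.

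The values are taken as TPM, that is transcript abundance scaled for length and to the same total in each library, a unit that was inferred because the table names none. They could also be FPKM, and both units are per length, so that levels can be set side by side between genes of a library. The table lists only genes that passed a fold change of 1.2 and a p of 0.05 in the authors' own comparison of these 6 libraries, and a test on the same libraries is not independent of that selection. The fit used here was limma on log2(TPM + 1) over the 5721 genes whose mean reached 1 TPM, with the Benjamini-Hochberg adjustment over all of them. A gene was called at a fold change over 1.2 and an unadjusted p under 0.05, and "rose" and "fell" are used for an adjusted p under 0.05. The listed genes held 54.3 to 54.8% of the full 1000000 TPM in the control libraries and 58.6 to 60.0% in the doxorubicin libraries, and Pearson's r across genes, which are not independent replicates, was 0.992 to 0.995 within groups and 0.935 to 0.958 between groups. Of the 15 fibroblast markers looked for, 7 had a row, and their summed level was 10411 to 10739 TPM in control libraries and 9475 to 11562 TPM after doxorubicin, where FN1 rose and COL1A1, COL1A2, COL3A1, COL5A1, PDGFRA and PDGFRB fell. VIM, THY1 and the other 6 had no row. Of 8 epithelial markers 4 had a row, with sums of 140 to 156 TPM and 286 to 311 TPM that were mostly KRT19 (107 ± 6.47 and 246 ± 10.4 TPM, SD, n = 3 each). KRT18 rose as well, CLDN4 fell from a mean of 4.73 to 2.82 TPM, KRT8 overlapped between the groups, and EPCAM and CDH1 had no row. The endothelial list had a row only for TEK (8.45 to 9.83 TPM and 2.29 to 3.27 TPM), and the immune list for CD68 and PTPRC (45.02 to 48.97 TPM and 87.4 to 93.7 TPM), of which PTPRC stayed at or below 0.62 TPM. The part of these markers in the results was not tested.

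GAPDH (ENSG00000111640, GRCh38 chromosome 12, 6533927 to 6538374, plus strand) encodes the dehydrogenase of the sixth step and was the most abundant of the 7. Control libraries had 7037, 7327 and 7033 TPM of it, doxorubicin libraries 7832, 7924 and 7733 TPM. The lowest doxorubicin library lay above the highest control library. GAPDH held 0.713% ± 0.0168 (SD, n = 3) of all TPM in the control group and 0.783% ± 0.00956 (SD, n = 3) in the doxorubicin group, and ranked 10 or 11 among the listed genes in each of the 6 libraries. The log2 fold change was 0.13 (standard error 0.04, 95% interval 0.05 to 0.22, adjusted p = 0.0112 from limma) on the TPM scale, 0 after quantile normalization (adjusted p = 1) and 0.39 with each library centred on its median (adjusted p = 0.00251). Quantile normalization gives a gene the value of its rank, and GAPDH held rank 10 in a pair of libraries and rank 11 in the other one of each group, so the 0 follows from the ranks and bears on no change in level. At 1.10 times control it was not called at the minimum fold change of 1.2, although its row is in a table filtered at that value. The authors' fold change therefore differs from the ratio of these values, and the reason was not tested. The same holds for ALDOA and PKM, at 1.09 and 1.15 times control. Without control replicate 1 the adjusted p of GAPDH was 0.0582. GENCODE release 29 lists 62 numbered GAPDH pseudogenes, and the counting is not stated to keep their reads apart. The same holds for the 2, 4, 5 and 6 numbered pseudogenes of ALDOA, ENO1, PKM and LDHA.

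The primer pair that the study lists for GAPDH is printed here because the paper names this gene as the divisor of its qPCR values. The forward and the reverse primer read, 5′ to 3′:

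GAPDH forward: CAGCAAGTGGGAAGGTGTAATCC

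GAPDH reverse: CCCATTCTATCATCAACGGGTACAA

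These primers of 23 and 25 bases were searched in the 206694 transcripts of GENCODE release 29. In the 11 GAPDH transcripts the closest site had 8 mismatches to the forward primer and 9 to the reverse primer. Both primers matched without a mismatch in 13 transcripts of RPLP0, which encodes a large-subunit ribosomal protein and is itself used as a reference gene, and in its pseudogene RPLP0P6, and in no transcript of another gene. The stretch between and including both primers has 75 bases, lies in the coding part of exon 7 of RPLP0, and is chr12:120197327-120197401 on the minus strand of GRCh38. It is printed in the sense of the transcript, with the letters of the reverse primer (left) and the reverse complement of the forward primer (right) in capitals.

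RPLP0 stretch: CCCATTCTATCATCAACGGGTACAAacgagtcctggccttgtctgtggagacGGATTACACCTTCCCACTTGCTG

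The other 10 primer pairs of the study were searched in the same way, and for each of them both primers matched a transcript of the gene they are listed for. The match is one of letters in an annotation, and no amplification was measured here. RPLP0 had no row in the table, and its level was not analysed here.

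PFKP (ENSG00000067057, GRCh38 chromosome 10, 3066333 to 3137712, plus strand) encodes the platelet form of phosphofructokinase, the committed step. The control libraries had 119, 122 and 136 TPM, those with doxorubicin 77.6, 76.9 and 83.0 TPM. All doxorubicin libraries lay below all control libraries. PFKP fell by 0.66 on the log2 scale (standard error 0.07, adjusted p = 3.27e-05 from limma), the largest fall among the 7 on the TPM scale.

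Both aldolase genes of the set were listed. ALDOA (ENSG00000149925, GRCh38 chromosome 16, 30064164 to 30070457, plus strand), the aldolase of muscle and most other cells, was at 1353, 1362 and 1315 TPM in control libraries and at 1408, 1493 and 1484 TPM after doxorubicin. The groups did not overlap, but by a narrow margin. The log2 fold change was 0.12 (standard error 0.05, adjusted p = 0.0357 from limma), 0.02 after quantile normalization (adjusted p = 0.74) and 0.38 with median-centred libraries, and without any one of control replicates 1, 2 and 3 or doxorubicin replicates 2 and 3 the adjusted p lay above 0.05, at up to 0.115. ALDOC (ENSG00000109107, GRCh38 chromosome 17, 28573115 to 28577264, minus strand), the aldolase best known from brain, was at 15.5, 16.3 and 15.0 TPM in control libraries and at 22.6, 22.4 and 23.7 TPM after doxorubicin. It rose by 0.53 in log2 units (limma, standard error 0.09, adjusted p = 0.00054) and was the only one of the 7 genes called higher in TPM, where 4 were called higher with median-centred libraries. Its change was 0.71 after quantile normalization and 0.79 with median-centred libraries. ALDOC made up 1.15% ± 0.0290 (SD, n = 3) of the summed TPM of both aldolase genes in the control group and 1.54% ± 0.0578 (SD, n = 3) in the doxorubicin group (p = 0.1 in the exact two-sided permutation test, which cannot go lower with 3 libraries in each group). ALDOA therefore remained nearly all of the aldolase transcripts in both groups.

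ENO1 (ENSG00000074800, GRCh38 chromosome 1, 8861000 to 8879250, minus strand) encodes alpha-enolase, the enolase of most tissues. Control libraries held 1617, 1718 and 1624 TPM, and doxorubicin libraries 1143, 1119 and 1196 TPM. Every doxorubicin library was below every control library. ENO1 fell by 0.52 on the log2 scale (standard error 0.05, adjusted p = 1.45e-05 from limma).

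PKM (ENSG00000067225, GRCh38 chromosome 15, 72199029 to 72231822, minus strand) encodes the pyruvate kinase of fibroblasts, and the table does not separate its M1 and M2 splice forms. It was at 2138, 2236 and 2040 TPM in control libraries and at 2453, 2320 and 2576 TPM after doxorubicin. The lowest doxorubicin library lay just above the highest control library. The log2 fold change was 0.20 (standard error 0.05, adjusted p = 0.00831 from limma), 0.11 after quantile normalization (adjusted p = 0.109) and 0.45 with median-centred libraries (adjusted p = 0.000562).

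LDHA (ENSG00000134333, GRCh38 chromosome 11, 18394388 to 18408425, plus strand) encodes the A subunit of lactate dehydrogenase. The 3 control values were 656, 668 and 632 TPM, and the 3 values with doxorubicin 440, 431 and 444 TPM. The libraries of a group lay close together and the groups far apart, with coefficients of variation of 2.78% and 1.51%. LDHA fell by 0.57 on the log2 scale (standard error 0.05, adjusted p = 6.69e-06 from limma).

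**Figure D1:**
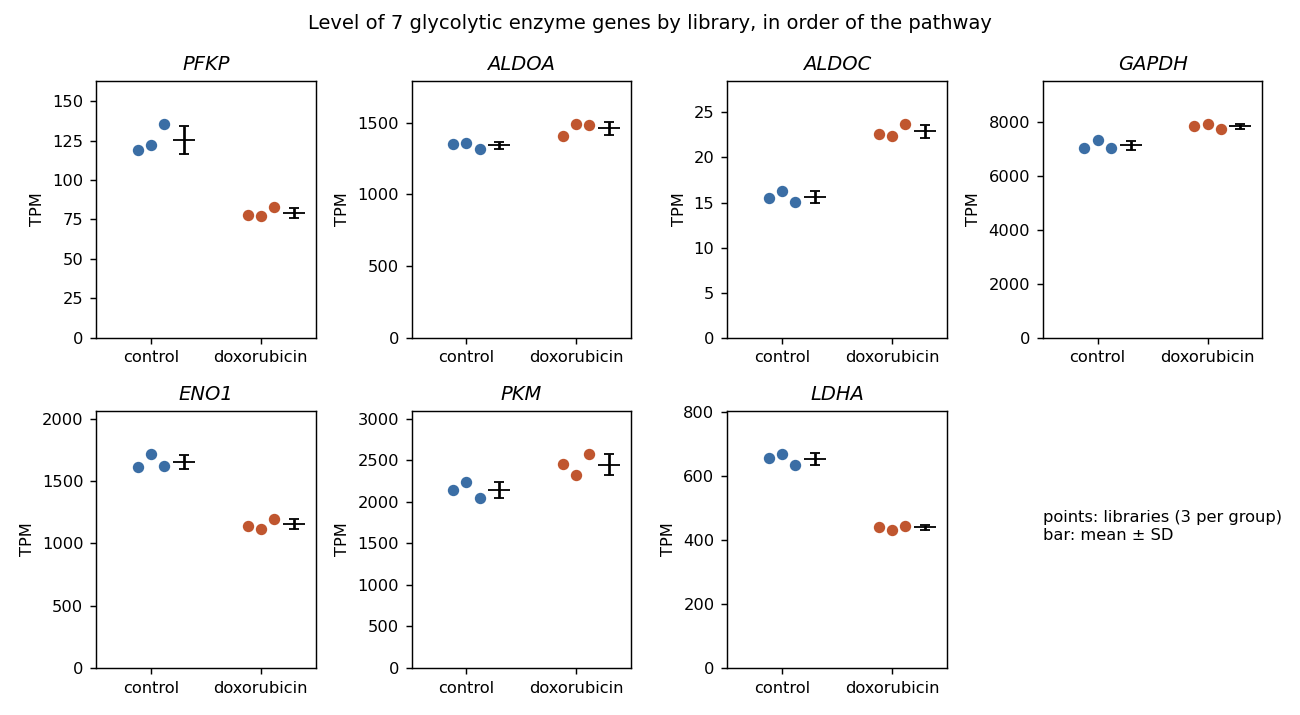
TPM of the 7 enzyme genes in each of 3 control and 3 doxorubicin libraries (points), with the mean ± SD beside them and each axis starting at 0. The groups do not overlap in any of the 7 panels, as for 80.7% of the genes tested. PFKP, ENO1 and LDHA lie lower after doxorubicin and ALDOC higher, while GAPDH, ALDOA and PKM lie slightly higher on this scale. The log2 fold changes of GAPDH, ALDOA and PKM were 0.13, 0.12 and 0.20 here and 0.39, 0.38 and 0.45 with median-centred libraries. After quantile normalization they were 0, 0.02 and 0.11, and the 0 of GAPDH follows from its rank.

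Of the 7 genes, 1 was called higher and 3 lower, where 72.4% of the 5721 genes tested were called, 23.4% higher and 49.0% lower. The libraries of both groups did not overlap for each of the 7, as for 80.7% of the genes tested. These shares describe a table that holds only changed genes, beside which the counts of the members are no result of their own. With the adjusted p alone, 4 were higher and 3 lower, against 28.2% and 48.7% of the genes tested. The median log2 fold change was 0.12 over the 7 genes and -0.28 over all genes tested. The latter is a median of a list whose middle has been left out, and it was -0.02 after quantile normalization, -0.02 with median-centred libraries and 0.05 over the 4203 genes whose mean reached 5 TPM. Relative to -0.28, GAPDH stood at 0.42, ALDOA at 0.40, PKM at 0.48, ALDOC at 0.81, ENO1 at -0.24, LDHA at -0.29 and PFKP at -0.37. The falls of PFKP, ENO1 and LDHA and the rise of ALDOC kept their direction and an adjusted p under 0.05 on all 3 scales, with ENO1 at -0.59 and -0.26, LDHA at -0.73 and -0.31 and PFKP at -0.69 and -0.40 after quantile normalization and with median-centred libraries. With median-centred libraries ENO1 was under the minimum fold change of 1.2, so that 2 of the 7 were called lower there and 4 higher. Of all genes tested, 1769 were called lower and 2604 higher on that scale.

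**Figure D2:**
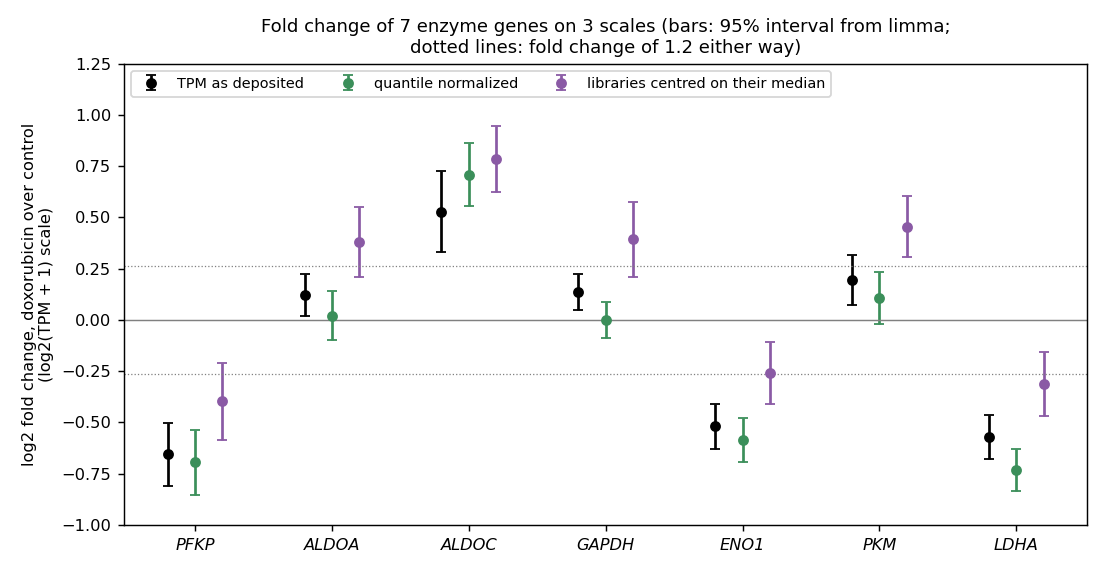
Log2 fold change of doxorubicin over control for the 7 enzyme genes in pathway order, fitted with limma on TPM as deposited (black), after quantile normalization (green) and with each library centred on its median (purple). Bars are 95% intervals and dotted lines mark a fold change of 1.2 either way. The intervals of PFKP, ENO1, LDHA and ALDOC stay on one side of 0 on each scale. Those of GAPDH, ALDOA and PKM reach 0 after quantile normalization, where the rank of GAPDH fixes its value.

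A ratio between 2 genes of the same library does not change when all genes of that library are multiplied by 1 factor, and the enzymes were therefore also divided by GAPDH. Quantile normalization is no such factor and does change these ratios. For each 1000 GAPDH transcripts there were 93.2, 91.1 and 89.9 of LDHA in the control libraries and 56.1, 54.4 and 57.4 in the doxorubicin libraries. ENO1 went from 230, 235 and 231 to 146, 141 and 155 on this scale, and PFKP from 16.9, 16.7 and 19.3 to 9.91, 9.70 and 10.7. These 3 genes were lower against GAPDH in every doxorubicin library, at 0.613, 0.635 and 0.575 times the control ratio (exact two-sided permutation test, p = 0.1 for each, the smallest possible). ALDOC against GAPDH was higher, at 1.34 times the control ratio (exact permutation test, p = 0.1), a log2 difference of 0.42 that was 0.75 after quantile normalization. ALDOA and PKM against GAPDH overlapped between the groups, at 0.991 and 1.04 times the control ratio (exact permutation test, p = 0.8 and p = 0.4). A constant ratio shows that 2 transcripts moved alike, and not that either stayed the same.

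**Figure D3:**
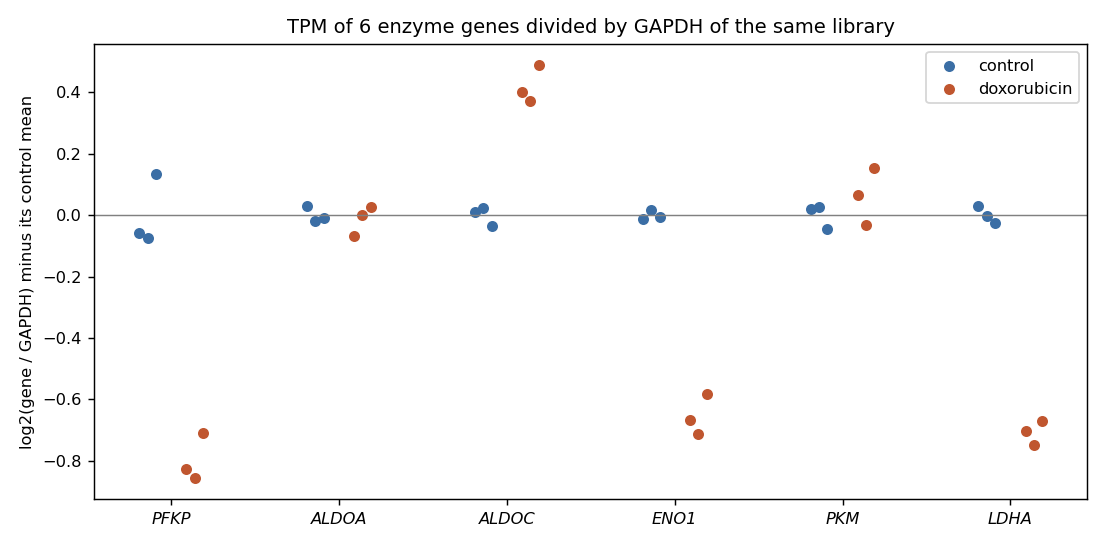
Log2 ratio of 6 enzyme genes to GAPDH of the same library, minus the mean of the control libraries (vertical axis), for 3 control (blue) and 3 doxorubicin libraries (orange). PFKP, ENO1 and LDHA lie below the control mean after doxorubicin and ALDOC above it, while the points of ALDOA and PKM overlap.

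The order of levels changed at one place. In the control libraries it was GAPDH, PKM, ENO1, ALDOA, LDHA, PFKP and ALDOC from high to low, and after doxorubicin ALDOA stood above ENO1. The ratio of ENO1 to ALDOA, chosen after the values were seen, was 1.195, 1.26 and 1.23 in the control libraries and 0.811, 0.750 and 0.806 in the doxorubicin libraries, a difference of -0.64 on the log2 scale (exact two-sided permutation test, p = 0.1, the smallest possible). No neighbours in either order had overlapping values within a group. The ratio of LDHA to PKM, which share pyruvate as product and substrate, was not planned either. It went from 0.307, 0.299 and 0.310 to 0.179, 0.186 and 0.172 (exact permutation test, p = 0.1). Summed over the 7 genes, the level was 13060 ± 345 TPM (SD, n = 3) in the control group and 13434 ± 92.1 TPM (SD, n = 3) in the doxorubicin group, and the groups overlapped (exact two-sided permutation test, p = 0.3). Without GAPDH the sums were 5928 ± 182 and 5605 ± 180 TPM (SD, n = 3 each, exact two-sided permutation test, p = 0.2). GAPDH made up 54.6% ± 0.307 of the sum of 7 genes in the control group and 58.3% ± 1.07 after doxorubicin (SD, n = 3 each).

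Promoter windows of LDHA, ENO1 and GAPDH are printed to set a pair of genes that fell beside the reference gene. Each is the 300 bases from 250 before to 50 after a transcript start in RefSeq on GRCh38.p14, written 5′ to 3′ on the strand of the gene. Capitals mark ACGTG and GCGTG on either strand (read as CACGT and CACGC on the other), the core letters bound by hypoxia-inducible factors. The palindrome CACGTG, also the letters of an E-box, counts as 2 overlapping positions. The windows are chr11:18394313-18394612 (plus), chr1:8878637-8878936 (minus) and chr12:6535014-6535313 (plus). The GAPDH window lies wholly inside the gene, whose first annotated base is 6533927. It is thus that of an internal start and may not be the main promoter, and other GAPDH starts were not searched. The ENO1 window also lies inside its gene as annotated.

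LDHA: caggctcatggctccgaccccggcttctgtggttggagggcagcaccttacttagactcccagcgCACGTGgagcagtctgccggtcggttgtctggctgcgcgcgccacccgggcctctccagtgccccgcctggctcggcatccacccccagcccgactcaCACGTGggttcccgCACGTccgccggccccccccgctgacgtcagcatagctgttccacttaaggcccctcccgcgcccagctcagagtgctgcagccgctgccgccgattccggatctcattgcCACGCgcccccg

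ENO1: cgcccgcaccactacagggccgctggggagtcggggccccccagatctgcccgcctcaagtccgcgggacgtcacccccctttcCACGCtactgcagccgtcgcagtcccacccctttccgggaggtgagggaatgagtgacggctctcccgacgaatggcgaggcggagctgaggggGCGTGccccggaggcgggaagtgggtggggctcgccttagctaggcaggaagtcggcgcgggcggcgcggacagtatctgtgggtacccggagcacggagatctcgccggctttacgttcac

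GAPDH: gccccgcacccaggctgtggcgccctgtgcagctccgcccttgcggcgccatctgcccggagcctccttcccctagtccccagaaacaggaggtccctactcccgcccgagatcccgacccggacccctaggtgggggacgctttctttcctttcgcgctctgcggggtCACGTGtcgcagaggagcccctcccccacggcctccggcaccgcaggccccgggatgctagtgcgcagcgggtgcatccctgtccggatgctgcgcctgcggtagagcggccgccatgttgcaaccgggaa

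The LDHA window printed held 6 positions and the window at its other start 1, that of ENO1 held 2 and that of GAPDH 2. Among all 35116 promoter windows of the table, 48.4% held at least 1 position, 23.1% at least 2 and 10.1% at least 3. The 7 enzyme genes had 13 windows, since ALDOA, LDHA and PFKP have several starts among those searched, and 11 of these windows held a position. ALDOC, which rose, had 5 positions in its window, PKM had 1, the 3 windows of ALDOA had 1, 2 and 1, and the 4 windows of PFKP, which fell, had 0, 0, 1 and 3. These letters are a description, and binding was not measured here.

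The reference gene was next set beside other genes that are commonly used for the same purpose. Of 27 such genes, 13 had a row, GAPDH included, and ACTB, RPLP0, TBP and PGK1 were among those without one. Of the 13, 1 was called higher and 6 lower, beside 23.4% and 49.0% of all genes tested, and their log2 fold changes ran from -1.08 to 0.33. The tubulin genes TUBA1B and TUBB fell most, from 2095 ± 107 to 994 ± 67.4 TPM and from 1221 ± 64.3 to 613 ± 49.1 TPM (SD, n = 3 each). TFRC, the transferrin receptor, YWHAZ, a 14-3-3 protein, IPO8, an importin, and HPRT1, a purine salvage enzyme, fell by 0.91, 0.61, 0.63 and 0.49 on the log2 scale. PPIA, cyclophilin A, was at 4024 ± 22.3 and 5057 ± 224 TPM (SD, n = 3 each), higher by 0.33 in log2 units and not called after quantile normalization, where 0 of the 13 were called higher and 6 lower. With median-centred libraries 7 were called higher and 5 lower. Over all 5721 genes tested, 1910 were called higher and 1723 lower after quantile normalization, and 2604 and 1769 with median-centred libraries. B2M, GUSB and POLR2A had log2 fold changes of 0.08, 0.09 and 0.05 on the TPM scale with adjusted p-values of 0.136, 0.318 and 0.668 in limma, and their control and doxorubicin libraries overlapped. GAPDH, at 0.13, lay between GUSB and SDHA in this order, and the 95% intervals of these neighbours overlapped its own. B2M, GUSB and POLR2A nevertheless passed the authors' own thresholds for fold change and p, as every listed gene did. Their small changes on the TPM scale therefore do not show that they were stable. The reason for this difference from the authors' comparison was not tested. Since genes outside the table are not analysed here, the set cannot be read as a ranking of reference genes.

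**Figure D4:**
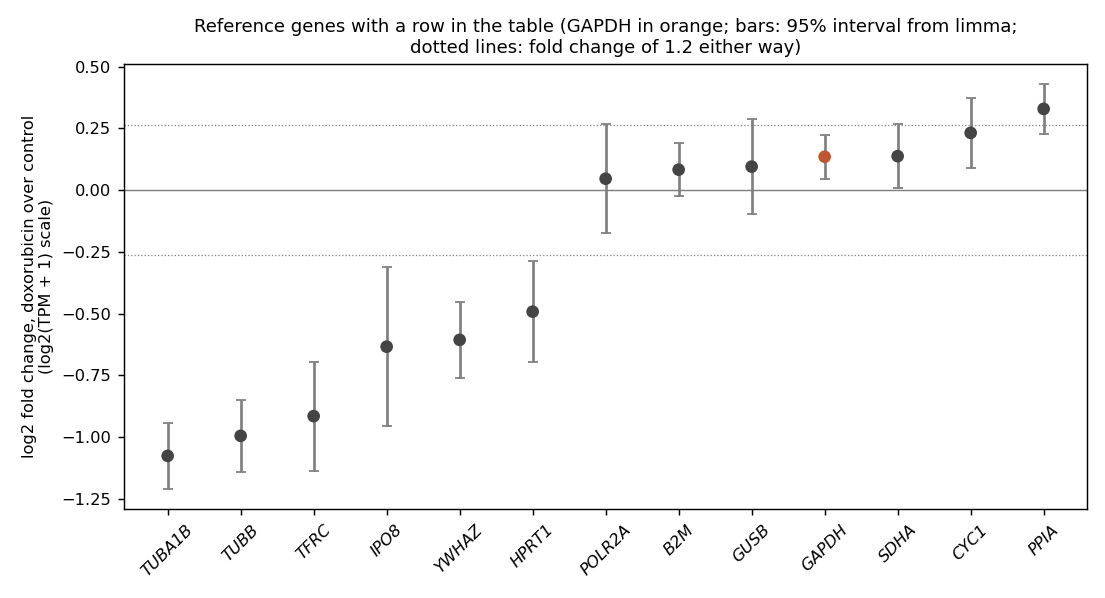
Log2 fold change of doxorubicin over control on the log2(TPM + 1) scale for the 13 reference genes with a row, ordered by value, with 95% intervals from limma. TUBA1B to HPRT1 lie below the dotted line of a fold change of 1.2, and GAPDH (orange) lies at 0.13 among POLR2A, B2M, GUSB and SDHA, a value that was 0 after quantile normalization, where its rank fixes it, and 0.39 with median-centred libraries.

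Genes that the study measured by qPCR were then divided by GAPDH of the same library, to show what such a division does to these values. The listed GAPDH primers match RPLP0 and not GAPDH, and RPLP0 had no row, so the division may not mirror that of the study. Of 10 such genes, 5 had a row and 4 a mean of at least 1 TPM. CDKN1A, which encodes p21, had a log2 difference of 1.06 on its own TPM, 0.93 after division by GAPDH and 0.98 after division by B2M. LAMTOR4, a Ragulator subunit, had differences of 0.61, 0.48 and 0.53, and the histone gene H4C14 of 1.68, 1.55 and 1.60. ZFP91, a ubiquitin ligase gene, had -1.51, -1.64 and -1.59. No direction changed with the divisor. GAPDH and B2M had log2 fold changes of 0.13 and 0.08, smaller than those of the 4 genes, so no direction could have turned. The values of both groups did not overlap with either divisor (exact two-sided permutation test, p = 0.1 for each, the smallest possible). In TPM the groups did not overlap for 80.7% of the genes tested. H4C14 shares its coding sequence with a near-identical copy, and its level is uncertain.

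By pattern over the 6 libraries, the genes most like GAPDH were EIF6, PDXK, LMNA, NDUFS4 and SDHA among 5720 others. Likeness was the root mean square difference in log2(TPM + 1) after the control mean of each gene was taken away, and it was 0.0113, 0.0134, 0.0151, 0.0157 and 0.0158. EIF6, a factor of large ribosomal subunit maturation, went from 359 ± 5.70 to 397 ± 6.92 TPM, and LMNA, the gene of lamins A and C, from 819 ± 16.1 to 906 ± 13.6 TPM (SD, n = 3 each). PDXK encodes pyridoxal kinase, and NDUFS4 and SDHA are subunits of respiratory complexes I and II. Of the other 6 enzymes, ALDOA was in place 29 and PKM in place 376, and the other 4 stood at place 2090 or lower.

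The steps around the 7 enzymes were described from 6 lists of 122 genes, of which 48 had a row and 46 a mean of at least 1 TPM. Among these 46, 5 were called higher and 31 lower, beside 23.4% and 49.0% of all genes tested. After quantile normalization 10 were called higher and 21 lower, where 1910 and 1723 of the 5721 genes tested were. With median-centred libraries 14 were called higher and 19 lower, where 2604 and 1769 of all genes tested were. Of the other glycolytic genes, 7 of 31 had a row and 3 of the 6 tested were called lower and 0 higher. This balance turned to 3 higher and 1 lower on both other scales, as it turned towards higher for all genes tested. HK2, a hexokinase that traps glucose in the cell, went from 3.20 ± 0.0854 to 2.21 ± 0.531 TPM, ADPGK, an ADP-dependent glucokinase, from 38.6 ± 2.34 to 30.2 ± 2.24 TPM, and PFKFB3, which makes the activator of phosphofructokinase, from 17.6 ± 2.30 to 11.3 ± 3.33 TPM (SD, n = 3 each). TIGAR, a p53-induced phosphatase that lowers the same activator, was at 13.2, 7.04 and 9.22 TPM in control and 15.3, 10.3 and 14.04 TPM in doxorubicin libraries, which overlapped (adjusted p = 0.0891 from limma). LDHD stayed at or below 0.20 TPM in each library. GPI, PGAM1 and LDHB, which fill the remaining steps, had no row.

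Glucose and lactate transporters were the list nearest to the cell surface. Of 7 tested, 5 were called lower and 1 higher, beside 49.0% and 23.4% of all genes tested. On both other scales 3 were lower and 2 higher. Of all 5721 genes tested, 1723 were lower and 1910 higher after quantile normalization, and 1769 and 2604 with median-centred libraries. SLC2A1, the basal glucose transporter GLUT1, was at 145, 147 and 160 TPM in control libraries and 78.8, 89.0 and 87.1 TPM after doxorubicin. SLC2A3, the high-affinity transporter GLUT3, was at 41.5, 44.97 and 32.1 TPM and 19.7, 21.3 and 23.9 TPM. Neither overlapped between the groups, as for 80.7% of the genes tested. They fell by 0.82 and 0.83 on the log2 scale (adjusted p = 6.53e-06 and 0.000314 from limma). SLC16A1, the lactate carrier MCT1, was at 19.1, 21.1 and 18.9 TPM in control and 14.4, 12.5 and 15.1 TPM in doxorubicin libraries, and BSG, the basigin chaperone of that carrier, rose from 687 ± 34.8 to 952 ± 28.2 TPM (SD, n = 3 each).

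Of the genes that lead pyruvate onward, 5 of 7 tested were called lower and 2 higher, beside 49.0% and 23.4% of all genes tested. On both other scales 4 were lower and 2 higher. Among all 5721 genes tested, 1723 were lower and 1910 higher after quantile normalization, and 1769 and 2604 with median-centred libraries. DLAT, a subunit of pyruvate dehydrogenase, fell by 0.73, PDP1, the phosphatase that activates it, by 0.64, PC, pyruvate carboxylase, by 0.68 and PCK2, mitochondrial PEP carboxykinase, by 0.99 on the log2 scale. PDK2, a kinase that inactivates pyruvate dehydrogenase, rose from 24.5 ± 1.52 to 32.6 ± 3.51 TPM, and MPC2, a subunit of the mitochondrial pyruvate carrier, from 42.8 ± 1.16 to 51.9 ± 1.66 TPM (SD, n = 3 each). Of the pentose phosphate genes 3 had a row, and PGD, 6-phosphogluconate dehydrogenase, was the one called, lower at 165 ± 5.61 against 231 ± 1.55 TPM (SD, n = 3 each), a call that was lost with median-centred libraries, where 2 of the 3 were called higher and 0 lower.

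The largest changes around the pathway were in the serine branch, which leaves glycolysis at 3-phosphoglycerate. PSAT1, its transaminase, was at 64.0, 58.9 and 67.7 TPM in control libraries and at 14.8, 11.5 and 15.1 TPM after doxorubicin. PHGDH, the first enzyme, was at 119, 98.5 and 113 TPM and at 28.3, 26.2 and 33.3 TPM. PSPH, the last, was at 22.0, 16.7 and 15.1 TPM and at 8.93, 9.14 and 12.8 TPM. All 3 were lower in every doxorubicin library, and the groups did not overlap for 80.7% of the genes tested. In limma PSAT1 fell by 2.13, PHGDH fell by 1.88 and PSPH fell by 0.75 on the log2 scale. The list of branches held 12 tested genes, of which 8 were called lower and 2 higher, beside 49.0% and 23.4% of all genes tested. On both other scales 6 were lower, and 2 or 4 higher. Over all 5721 genes tested, 1723 were lower and 1910 higher after quantile normalization, and 1769 and 2604 with median-centred libraries. AKR1B1, aldose reductase, was among the lower ones, at 238 ± 6.58 against 357 ± 1.81 TPM, and G6PC3, a glucose 6-phosphatase, was higher at 139 ± 5.60 against 94.9 ± 1.71 TPM (SD, n = 3 each).

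Hypoxia-inducible factors and genes known to respond to them had 11 of 25 members in the table. Of these, 9 were called lower and none higher at the minimum fold change of 1.2 in limma. Over all genes tested, 49.0% were called lower and 23.4% higher. P4HA2 and CA12 were not called. P4HA2 rose by 0.22 on the log2 scale (adjusted p = 0.0126 from limma) and missed only the minimum fold change. HIF1A, the oxygen-regulated subunit, was at 54.4, 58.9 and 52.98 TPM in control libraries and 39.6, 34.5 and 44.6 TPM after doxorubicin, and EPAS1, which encodes HIF-2α, at 124, 110 and 118 TPM and 64.0, 59.8 and 65.9 TPM. Neither overlapped between the groups, as for 80.7% of the genes tested. ADM, adrenomedullin, fell from 202 ± 13.7 to 106 ± 7.82 TPM, LOX, lysyl oxidase, from 149 ± 15.6 to 66.2 ± 7.16 TPM, and VEGFA from 27.8 ± 0.785 to 16.7 ± 4.11 TPM (SD, n = 3 each). The median log2 fold change of the list was -0.62, beside -0.28 for all genes tested. It was -0.44 after quantile normalization and -0.36 with median-centred libraries, beside -0.02 for all genes tested on each. On these scales 6 and 5 of the list were called lower and 0 and 1 higher. Over all 5721 genes tested, 1723 and 1769 were called lower and 1910 and 2604 higher there.

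**Figure D5:**
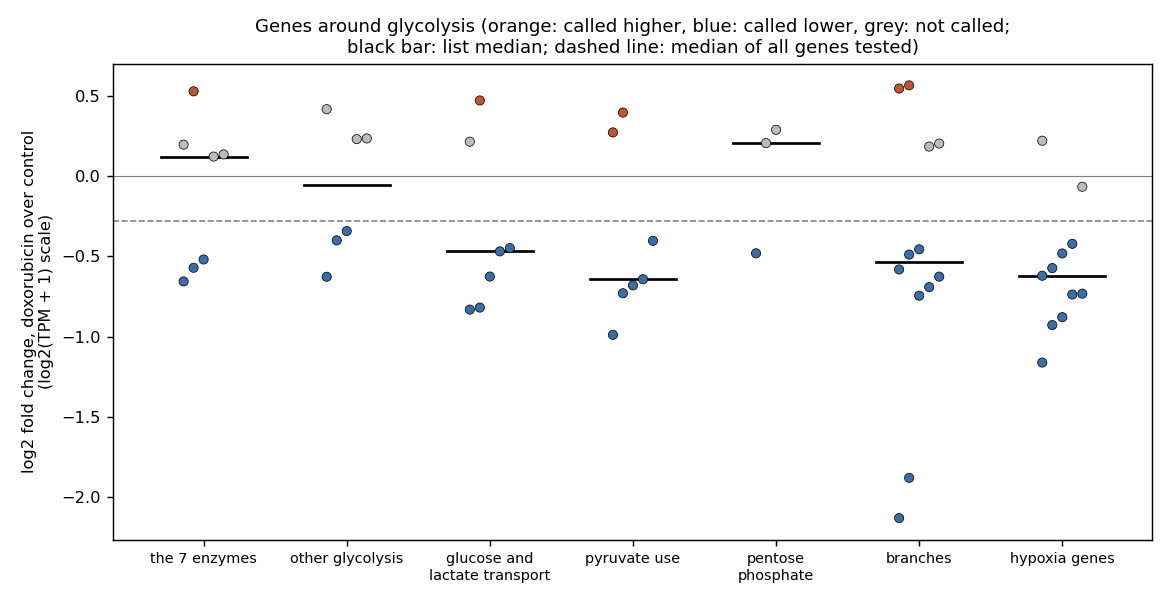
Log2 fold change of doxorubicin over control on the log2(TPM + 1) scale for each tested gene of the 7 enzymes and of 6 lists around them. Orange points were called higher, blue points lower and grey points not called, black bars are list medians, and the dashed line is the median of all genes tested, -0.28. PSAT1 and PHGDH are the lowest points of the branches, and no gene of the hypoxia list is orange on this scale.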

How the data were processed

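RNA of WI-38 cells was sequenced from both ends. The submitters' processing notes name CASAVA, HISAT2, StringTie, RSEM, DESeq2 and edgeR without role or version, and the mouse build GRCm38, although the identifiers are human. The authors deposited 1 value per gene and library, taken here as TPM, with group means and with fold changes, p-values and adjusted p-values of their own comparison, which were not used beyond checking that all 6499 rows passed a fold change of 1.2 and a p of 0.05. Read depth cannot be had from TPM and is unknown, and the 3 libraries of each group give the precision.

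On log2(TPM + 1), and after genes with a mean under 1 TPM were left out, limma 3.58.1 in R 4.3.3 (moderated with trend and robust settings) was fitted to all 5721 remaining genes. The fit was tested on simulated data with 200 of 5721 genes changed. At an adjusted p under 0.05, 157 of the 200 were recovered and 8 unchanged genes were called. In the real data 72.4% of the genes tested were called, so the simulation does not measure the error rate there. Single ratios, sums and shares were compared with the exact two-sided permutation test (SciPy 1.17.1). Positions and transcripts are from GENCODE release 29 on GRCh38, and promoters from RefSeq on GRCh38.p14. The genes named are the 7 enzymes, genes of the lists, the qPCR genes and the 5 genes nearest to GAPDH in pattern. Members and lists were chosen with earlier results of these data known. Alternatives were another pseudocount, other filters, quantile normalization, median-centred libraries, a block for the replicate number, changed thresholds, another divisor, and leaving out each library.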

Additional observations from a re-analysis of the deposited data

How the results depend on the processing

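The rise of ALDOC and the falls of ENO1, LDHA and PFKP kept their direction and an adjusted p under 0.05 under each alternative, and with each library left out in turn their log2 fold changes lay at 0.50 to 0.56, -0.55 to -0.49, -0.59 to -0.55 and -0.69 to -0.60. GAPDH lost its adjusted p under 0.05 after quantile normalization (0, fixed by its rank), with the replicate block (0.13, adjusted p = 0.0514) and without control replicate 1. It lay at 0.12 to 0.15 with each library left out. ALDOA lost it after quantile normalization (0.020), with the replicate block (0.12, adjusted p = 0.108) and without 5 of the 6 libraries (0.11 to 0.13), lying at 0.11 to 0.15 with each of the 6 left out, and PKM after quantile normalization (0.11). Same-numbered libraries did not deviate together (r of deviations -0.06, -0.19 and -0.23). Deviations centred over 3 libraries constrain each other, so these values cannot decide whether the numbers pair the libraries. The replicate block changed no other call of the 7 enzymes.

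The 7 enzymes were called higher in 4 cases with median-centred libraries and in 4 with an adjusted p under 0.05 and no minimum fold change. By that adjusted p, 9 other pathway genes were higher and 31 lower, beside 28.2% and 48.7% of all genes tested. With median-centred libraries 2 of the 7 enzymes were called lower, ENO1 being under the minimum fold change. Other pathway genes were called higher in 10 cases and lower in 21 after quantile normalization, where 1910 and 1723 of all genes tested were. With median-centred libraries 14 were higher and 19 lower, beside 2604 and 1769 of all genes tested. With a library left out 4 to 7 were higher and 28 to 31 lower, where 3902 to 4168 of all genes were called. At a fold change over 2, 463 of all genes were called, 0 of the 7 enzymes either way, and of the other pathway genes 0 higher and 3 lower. Of all calls, 32.3% were higher on the TPM scale, 52.6% after quantile normalization and 59.5% with median-centred libraries. The sum of the enzymes turned from higher to lower after quantile normalization (-0.075) and without GAPDH (-0.081). The ratio of ALDOA to GAPDH, near 0, changed sign after quantile normalization (0.020) and lay between -0.033 and 0.014 with each library left out. Of the alternative divisors planned, B2M was used, and RPLP0, PGK1 and ACTB had no row. The ratios of enzymes to GAPDH and of ENO1 to ALDOA, with their alternatives, were chosen after seeing the data. The ratio of LDHA to PKM was not planned and had no alternatives. Quantile and median scaling used listed genes only, and the cause of the changes was not tested.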
